A study of Homo sapiens with 12 samples.

Results

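The genes described here encode enzymes of sterol synthesis, proteins of sterol uptake and sensing, and enzymes that make and modify fatty acids. They were taken by symbol from a list of 38 genes, of 43481 genes with a value in the count tables. The list holds 18 sterol enzymes, 10 uptake and sensing genes and 10 fatty acid enzymes, and all 38 passed the filter on low counts, as did 15263 genes in all. RNA came from RPE-1, an established human line of retinal pigment epithelium, in 4 groups of 3 poly-A libraries. All cells were first kept for 24 h in medium that lacked both glucose and fetal calf serum (FCS). The DMA group was then given 10% FCS and 5 g/l glucose for 4 h together with 100 µM dimethyl amiloride (DMA), an inhibitor of Na+/H+ exchange. The C646 group received the same medium for 4 h with 10 µM C646, an inhibitor of the acetyltransferases p300 and CBP. The solvent group received that medium for 4 h with the solvent DMSO, and the starved group was collected without serum, glucose or compound. The labels do not say whether the starved cells received DMSO. Stimulated and starved groups differ in serum, glucose and the 4 h of stimulation together, so these cannot be told apart. No group of starved cells with a compound is described in the labels, so each compound is seen only on top of serum and glucose. The labels number the libraries 1 to 3 and do not say whether they are separate cultures, so p-values measure only the spread between these libraries.

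Cells make cholesterol from acetyl-CoA through mevalonate, squalene and lanosterol, or take it up with lipoproteins, which serum contains. When sterol in the endoplasmic reticulum is low, SCAP escorts the SREBP transcription factors, encoded by SREBF1 and SREBF2, to the Golgi, where cleavage frees the part that enters the nucleus and activates sterol and fatty acid genes. INSIG1 and INSIG2 retain SCAP when sterol is plentiful. A separate set of factors, the LXRs, responds to oxysterols and activates the exporter ABCA1 and the ubiquitin ligase MYLIP.

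The libraries held 14910516 to 28968510 expected counts, of which spike-in controls took 0.527% to 1.28%. On the principal components of all genes tested, solvent library 1 was set off from solvent libraries 2 and 3 along the third component, which held 13.4% of the variance. Library 3 of every group lay at -36.7 to -27.6 on the second component (14.6%), against -2.66 to 27.1 for all other libraries. Counts from mitochondrial DNA took 1.67% to 4.14%, with the highest share in starved library 3. Of 9 markers of retinal pigment epithelium, RPE65, RLBP1 and TYR stayed at or below 0.293 CPM (counts scaled to library size by the trimmed mean of M-values, TMM) in every library, while KRT18 reached 366.8 to 685 CPM. MITF measured 30.970, 27.2 and 17.3 CPM in DMA, 32.4, 29.2 and 19.7 CPM in C646 and 33.5, 33.1 and 17.8 CPM in solvent libraries 1 to 3, against 52.0, 55.3 and 52.0 CPM in starved libraries 1 to 3, so that every stimulated library lay below every starved one. The other markers did not share this pattern. OTX2 overlapped between all groups. Means in DMA, C646, solvent and starved cells were 418, 322, 325 and 267 CPM for KRT8 and 590, 426, 539 and 438 CPM for KRT18. For BEST1 they were 1.58, 1.79, 0.998 and 2.52 CPM, and PMEL stayed at or below 0.822 CPM. The 5 markers of blood, endothelial, other epithelial and fibroblast cells summed to 2.04 to 2.81 CPM in DMA, 3.11 to 10.4 CPM in C646, 2.89 to 7.58 CPM in solvent and 4.06 to 8.71 CPM in starved libraries, with CD3E and EPCAM at most 0.0950 and 0.0806 CPM. Among the 9 epithelial markers, KRT8 (220 to 557 CPM) and KRT18 made up most of the sum. This sum was 906 to 1287 CPM in DMA, 661 to 936 CPM in C646, 819 to 1014 CPM in solvent and 651 to 932 CPM in starved libraries. The part of these differences in the results was not tested. In bulk RNA, fewer cells with a transcript and less of it per cell cannot be told apart.

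The promoters of 5 genes on which the results turn are shown because their transcripts were lower in every stimulated library than in every starved one, under TMM scaling, and because they show the motif letters counted here. Each line gives the 250 bases before the RefSeq start, which can lie outside or inside the GENCODE gene, 5′ to 3′ on the gene's strand, from RefSeq, build GRCh38.p14. Capitals mark CCAAT or its reverse complement ATTGG, and the sterol regulatory element core TCACNCCAC or its looser form CACNCCAC on either strand.
HMGCS1, chr5:43313413-43313662, minus strand: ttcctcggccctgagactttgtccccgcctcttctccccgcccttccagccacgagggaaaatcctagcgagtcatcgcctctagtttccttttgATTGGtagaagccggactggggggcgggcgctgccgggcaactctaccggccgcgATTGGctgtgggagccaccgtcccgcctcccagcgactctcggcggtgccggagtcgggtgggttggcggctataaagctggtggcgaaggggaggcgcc
MSMO1, chr4:165327419-165327668, plus strand: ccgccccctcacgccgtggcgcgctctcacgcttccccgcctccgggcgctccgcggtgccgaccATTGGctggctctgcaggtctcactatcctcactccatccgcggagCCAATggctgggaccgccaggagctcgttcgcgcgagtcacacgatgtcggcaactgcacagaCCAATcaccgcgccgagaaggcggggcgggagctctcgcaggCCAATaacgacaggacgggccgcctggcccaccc
STARD4, chr5:111512536-111512785, minus strand: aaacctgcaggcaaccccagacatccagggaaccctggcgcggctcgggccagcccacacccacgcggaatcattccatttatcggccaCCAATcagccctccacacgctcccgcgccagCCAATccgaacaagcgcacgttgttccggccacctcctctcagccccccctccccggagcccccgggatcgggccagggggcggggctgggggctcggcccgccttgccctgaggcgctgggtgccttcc
INSIG1, chr7:155297628-155297877, plus strand: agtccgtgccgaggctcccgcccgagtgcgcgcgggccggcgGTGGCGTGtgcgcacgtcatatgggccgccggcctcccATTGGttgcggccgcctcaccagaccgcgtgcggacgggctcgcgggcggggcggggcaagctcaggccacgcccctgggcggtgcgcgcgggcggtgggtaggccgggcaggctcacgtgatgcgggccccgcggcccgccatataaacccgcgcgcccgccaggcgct
SREBF2, chr22:41832855-41833104, plus strand: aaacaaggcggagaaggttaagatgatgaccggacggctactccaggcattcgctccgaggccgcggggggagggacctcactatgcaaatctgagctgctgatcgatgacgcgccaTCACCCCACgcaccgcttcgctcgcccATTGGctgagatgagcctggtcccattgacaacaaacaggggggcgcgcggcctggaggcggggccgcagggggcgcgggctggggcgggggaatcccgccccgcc
The looser form lies within the core, so each core match is counted under both. MSMO1 held 4 CCAAT matches, HMGCS1 and STARD4 2 each, and INSIG1 and SREBF2 1 each. Only SREBF2 among these 5 held the core, 133 bases before its start. INSIG1 held the looser form 208 bases before its start. HMGCS1 has a second RefSeq start, and the 250 bases before it held 0 CCAAT matches. Of the genes not printed, SREBF1, NPC1, CYP51A1 and INSIG2 were also lower in every stimulated library than in every starved one. The 250 bases before their RefSeq starts held 0 matches of CCAAT, the core or its looser form. A link between these letters and the lower levels was not tested.

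RefSeq windows of 300 bases, from 250 before to 50 after a start, were found for 34 of the 38 genes (46 windows), and ACAT2, FDFT1, SQLE and FASN had none. CCAAT, on either strand, occurred in 29 of the 46 windows (63.0%, 95% Wilson interval 48.6% to 75.5%), against 34.8% of 15742 windows of genes tested and 34.6% of all 35116 windows. Among the 20 windows of sterol enzymes the share was 75.0%, among the 14 of fatty acid enzymes 64.3% and among the 12 of uptake and sensing genes 41.7%. The GC box letters GGGCGG occurred in 89.1% of the 46 windows, against 64.2% of the windows of genes tested. The core TCACNCCAC occurred in 1 of 46 windows (2.17%), against 1.09% of the windows of genes tested. Its looser form CACNCCAC occurred in 8 of 46 (17.4%, interval 9.09% to 30.7%), in INSIG1, ABCA1, IDI1, SCD, SC5D, ACACA and SREBF2, against 5.74%. TGATGNAA, letters of the ATF4 element, occurred in 0 of 46, with an upper Wilson bound of 7.71%, against 2.10%. Windows of 1 gene can overlap, so these shares are descriptions, and a match is not a binding site.

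Levels per transcript length, in TPM (transcript abundance relative to all transcripts of a library), put NPC2, the soluble sterol carrier of lysosomes, highest of the 38, at 1035 ± 153 TPM in DMA, 859 ± 38.2 TPM in C646, 908 ± 92.6 TPM in solvent and 868 ± 40.5 TPM in starved cells (mean ± SD, n = 3 each). FDFT1, which makes squalene, and FDPS, which makes its precursor farnesyl diphosphate, followed with medians over the 12 libraries of 396 and 358 TPM. SCD, which introduces the first double bond into saturated fatty acids, had a median of 291 TPM, and FASN, the fatty acid synthase, 46.0 TPM. At the low end stood INSIG2 with a median of 12.1 TPM, ABCA1 with 0.878 TPM and MYLIP with 0.36 TPM. HMGCS1, INSIG1 and STARD4 had medians of 61.2, 39.4 and 35.0 TPM, and their starved means lay above all 3 stimulated means.

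**Figure D1:**
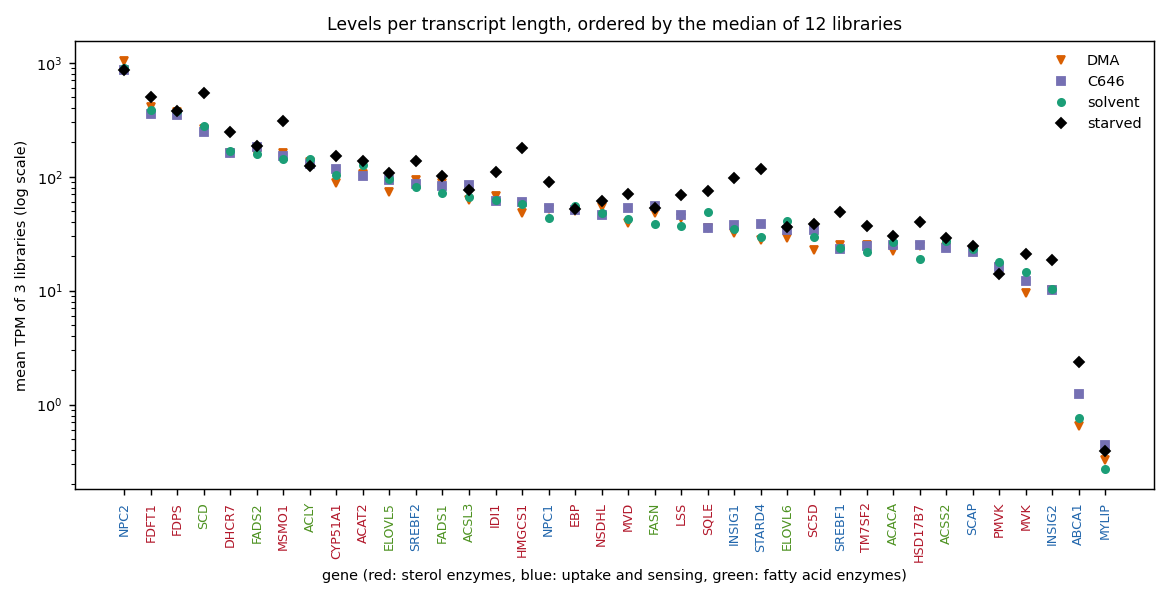
Mean TPM of 3 libraries for each of the 38 genes (log axis) in DMA, C646, solvent and starved cells, with genes ordered by their median over 12 libraries. Starved cells stand apart from the other groups for HMGCS1 (47.8, 59.7 and 58.0 TPM in DMA, C646 and solvent against 180.2 TPM in starved cells) and overlie them for FDPS.

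Many sterol enzyme transcripts were lower after serum and glucose than in starved cells under TMM scaling, and HMGCS1 had the lowest log2 fold change of the 18 in each of the 3 stimulated groups; scaled to the spike-in controls, HMGCS1 was the only one of the 18 that fell, and PMVK (1.01) and FDPS (0.81) were called higher in DMA, where the median of all genes was 0.81. Under TMM, 10 of 18 sterol enzymes fell in DMA, 12 in C646 and 12 in solvent, and none rose. All 3 comparisons share the starved libraries. Over all genes tested, 13.0% fell and 13.9% rose in DMA, 11.7% fell and 12.9% rose in C646, and 11.7% fell and 12.6% rose in solvent under TMM. With spike-in scaling 0.884% of all genes fell and 42.2% rose in DMA, 0.812% fell and 33.4% rose in C646, and 1.24% fell and 21.1% rose in solvent. The median log2 fold change of the 18 was -0.60 in DMA, -0.52 in C646 and -0.57 in solvent, against 0.00, 0.01 and 0.00 over all genes.

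HMGCS1, the cytosolic synthase that joins acetyl-CoA and acetoacetyl-CoA ahead of mevalonate, measured 94.5, 121 and 106 CPM in DMA, 139.8, 135 and 116 CPM in C646 and 154, 139 and 112 CPM in solvent libraries 1 to 3, against 405, 350.5 and 430.0 CPM in starved libraries 1 to 3. The gene lies on the minus strand at chr5:43289395-43313512 (GENCODE 29, GRCh38), and of its 2 promoter windows the printed one held 2 CCAAT matches. All 9 stimulated libraries lay below the lowest starved library, and the 3 stimulated groups overlapped one another. Its log2 fold change was -1.88 ± 0.14 for DMA, -1.60 ± 0.14 for C646 and -1.55 ± 0.14 for solvent (SE; edgeR quasi-likelihood adjusted p = 4.34e-06, 1.29e-05 and 1.85e-05), which left 0.271, 0.330 and 0.341 of the starved level. Scaled to the spike-in controls, the values were -1.06, -0.90 and -0.98, and all 3 passed the threshold (adjusted p = 0.00749, 0.0283 and 0.0231).

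MSMO1, the methyl sterol oxidase that begins removal of the C-4 methyl groups, measured 196, 300.5 and 233 CPM in DMA, 205, 226 and 259 CPM in C646 and 241, 204 and 211 CPM in solvent libraries 1 to 3, against 548, 441 and 466 CPM in starved libraries 1 to 3. No stimulated library reached a starved one. On the log2 scale, its fold changes were -0.996 for DMA, -1.08 for C646 and -1.15 for solvent (adjusted p = 0.000585, 0.000375 and 0.000246). SQLE, the squalene epoxidase, measured 60.3, 71.0 and 69.0 CPM in DMA, 62.8, 70.4 and 61.4 CPM in C646 and 89.4, 82.2 and 78.6 CPM in solvent libraries 1 to 3, against 164, 131 and 120.1 CPM in starved libraries 1 to 3. Here the order was stepped, with every inhibitor library below every solvent library and every solvent library below every starved one. Its log2 fold changes against starved cells were -1.05 for DMA, -1.09 for C646 and -0.73 for solvent (adjusted p = 0.000106, 8.17e-05 and 0.00126).

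MVK, the mevalonate kinase, measured 11.3, 10.1 and 13.3 CPM in DMA, 14.5, 18.7 and 11.9 CPM in C646 and 18.3, 18.9 and 16.6 CPM in solvent libraries 1 to 3, against 27.0, 29.5 and 22.9 CPM in starved libraries 1 to 3. Every DMA library lay below every solvent library, C646 overlapped both groups, and all starved libraries were higher. Against starved cells its log2 fold changes were -1.19 for DMA, -0.82 for C646 and -0.56 for solvent (adjusted p = 0.000538, 0.00573 and 0.0366). IDI1, which isomerises isopentenyl diphosphate, measured 71.3, 128 and 113 CPM in DMA, 79.1, 94.9 and 102 CPM in C646 and 100.3, 96.9 and 98.0 CPM in solvent libraries 1 to 3, against 188, 165 and 171 CPM in starved libraries 1 to 3. The solvent libraries lay within 96.9 to 100.3 CPM, inside the range of the DMA libraries. The log2 fold changes of this gene were -0.75 for DMA, -0.92 for C646 and -0.83 for solvent (adjusted p = 0.0065, 0.00211 and 0.00403). HSD17B7, a reductase that completes C-4 demethylation, measured 20.7, 30.2 and 23.3 CPM in DMA, 18.9, 26.3 and 26.9 CPM in C646 and 17.8, 19.6 and 19.7 CPM in solvent libraries 1 to 3, against 40.7, 36.7 and 41.9 CPM in starved libraries 1 to 3. All stimulated libraries were below all starved ones, and DMA libraries were above solvent libraries. Its log2 fold changes were -0.68 for DMA, -0.73 for C646 and -1.06 for solvent (adjusted p = 0.00918, 0.00747 and 0.000732). Of its 31-base sequences, 22.5% also occur in other genes, so its counts are uncertain.

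Further sterol enzymes also passed the threshold. In solvent against starved cells they were LSS, the lanosterol synthase (-0.83), TM7SF2, a C-14 sterol reductase (-0.75), DHCR7, the last reductase of one branch to cholesterol (-0.57), CYP51A1, the lanosterol demethylase (-0.54), FDFT1 (-0.43) and NSDHL, a dehydrogenase of C-4 demethylation (-0.37), all as log2 fold changes under TMM. In DMA against starved cells, CYP51A1 (-0.77), MVD, the decarboxylase that yields isopentenyl diphosphate (-0.81), SC5D, the sterol desaturase (-0.66), and DHCR7 (-0.49) passed. In C646 against starved cells, LSS (-0.56), DHCR7 (-0.54), FDFT1 (-0.52), NSDHL (-0.45), ACAT2, the cytosolic thiolase (-0.42), and CYP51A1 (-0.41) passed. The counts of ACAT2 and CYP51A1 are uncertain, since 52.3% and 83.2% of their exon bases overlap other genes. PMVK, the phosphomevalonate kinase, FDPS and EBP, the sterol isomerase, passed in none of the 3 comparisons under TMM. Their 95% intervals for solvent against starved cells were -0.07 to 0.64, -0.33 to 0.28 and -0.22 to 0.39.

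**Figure D2:**
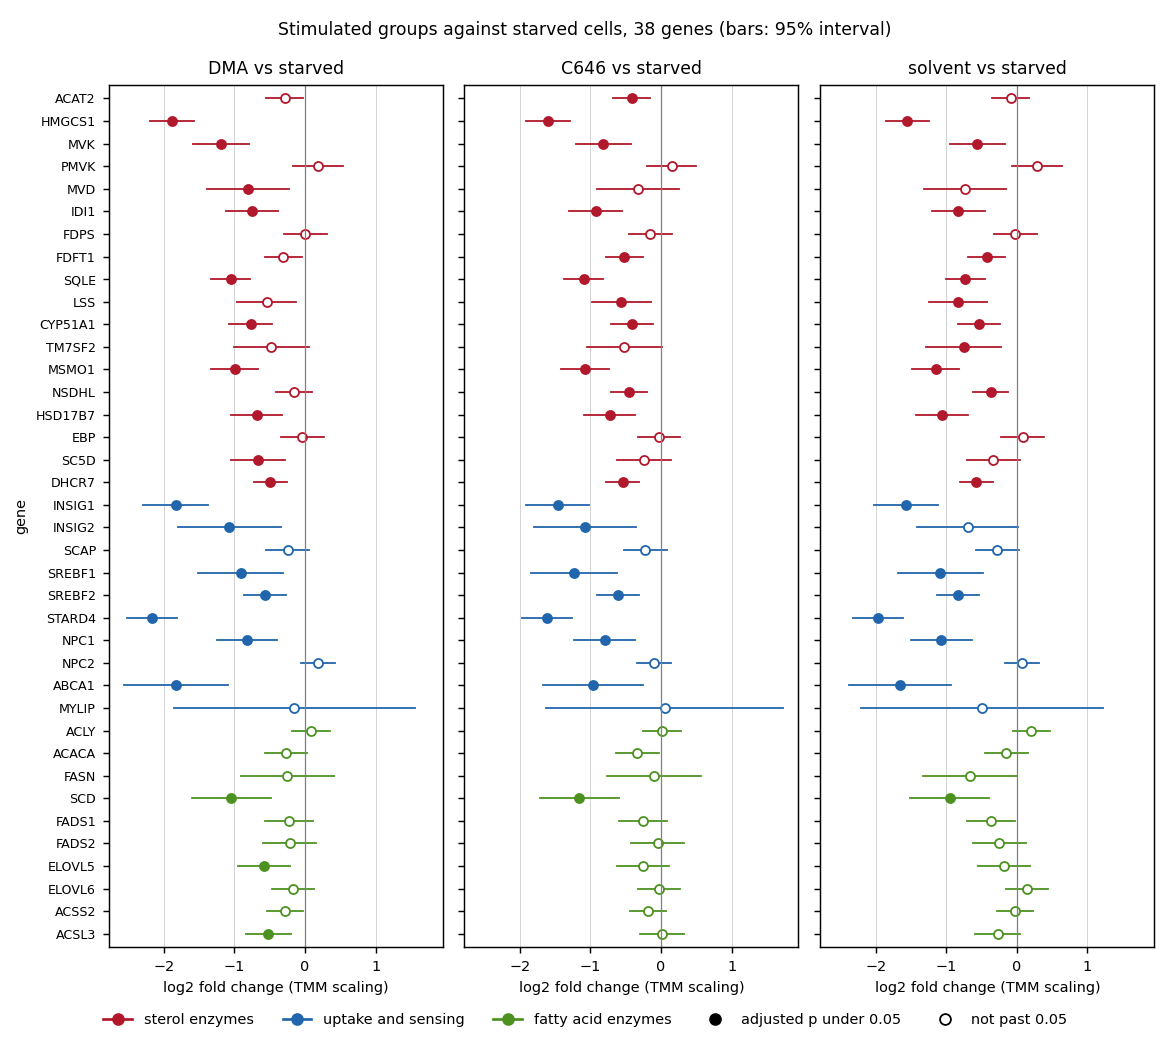
Log2 fold changes of the 38 genes against starved cells under TMM scaling, with 95% intervals from the edgeR fit; filled points passed an adjusted p of 0.05. Fatty acid enzymes other than SCD lie closer to 0 than HMGCS1, STARD4 and INSIG1, which were lower in every stimulated group under both scalings. Scaled to the spike-in controls, 14, 13 and 10 of the 18 sterol enzymes had values above 0 in DMA, C646 and solvent. So had 13779, 13608 and 12971 of all 15263 genes tested.

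Among uptake and sensing genes, the carrier STARD4, the retention protein INSIG1 and the exporter ABCA1 showed the lowest values against starved cells in DMA and solvent under TMM. Under this scaling 7 of 10 genes fell in DMA, 7 in C646 and 6 in solvent, against 13.0%, 11.7% and 11.7% of all genes tested. With spike-in scaling 3 fell in DMA, 2 in C646 and 3 in solvent, against 0.884%, 0.812% and 1.24% of all genes. With that scaling 1 of 10, NPC2, was called higher in DMA (0.97, adjusted p = 0.0161), against 42.2% of all genes and an all-gene median of 0.81. The median log2 fold change of the 10 was -0.87 in DMA, -0.88 in C646 and -0.95 in solvent under TMM. It was -0.04, -0.17 and -0.31 with spike-in scaling.

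STARD4, which carries sterol between membranes, measured 47.4, 62.3 and 65.0 CPM in DMA, 87.1, 72.2 and 97.0 CPM in C646 and 77.3, 67.3 and 56.6 CPM in solvent libraries 1 to 3, against 303, 237 and 246 CPM in starved libraries 1 to 3. Its gene is at chr5:111496033-111512590 on the minus strand, with 2 CCAAT matches in its promoter window. The starved libraries lay far above all others, and every DMA library lay below every C646 library. Its log2 fold change was -2.17 ± 0.17 for DMA, -1.62 ± 0.16 for C646 and -1.96 ± 0.17 for solvent (SE; adjusted p = 4.34e-06, 2.74e-05 and 1.10e-05), which left 0.222, 0.326 and 0.256 of the starved level. With spike-in scaling the values were -1.31, -0.89 and -1.38 (adjusted p = 0.000977, 0.029 and 0.00113).

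INSIG1 measured 45.6, 64.9 and 43.4 CPM in DMA, 86.4, 60.8 and 51.9 CPM in C646 and 76.6, 57.9 and 50.2 CPM in solvent libraries 1 to 3, against 177, 184 and 188 CPM in starved libraries 1 to 3. Its gene, at chr7:155297776-155310235 on the plus strand, is the one of the printed promoters with the looser motif form and without the core. The starved libraries were close together, every stimulated library lay below them, and the stimulated groups overlapped one another. On the log2 scale, its fold changes were -1.83 for DMA, -1.46 for C646 and -1.57 for solvent under TMM (adjusted p = 8.69e-05, 0.000378 and 0.000244). With spike-in scaling they were -1.02, -0.81 and -1.04 (adjusted p = 0.00987, 0.0466 and 0.0155).

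SREBF2, which encodes the SREBP that acts mainly on sterol genes, measured 239, 254 and 225 CPM in DMA, 211, 273 and 214 CPM in C646 and 179, 207 and 212 CPM in solvent libraries 1 to 3, against 364, 408 and 293 CPM in starved libraries 1 to 3. Its gene, at chr22:41833079-41907308 on the plus strand, is the one whose promoter window held the core. The starved libraries were higher than all others, and DMA libraries were higher than solvent libraries. The log2 fold changes of this gene were -0.57 for DMA, -0.61 for C646 and -0.83 for solvent (adjusted p = 0.0089, 0.00701 and 0.00103). SREBF1, which encodes the SREBPs tied more to fatty acid genes, measured 24.7, 29.6 and 27.9 CPM in DMA, 18.013, 27.1 and 20.9 CPM in C646 and 16.1, 27.9 and 29.003 CPM in solvent libraries 1 to 3, against 50.5, 72.1 and 31.9 CPM in starved libraries 1 to 3. Its starved libraries spread widely and still lay above all stimulated libraries. Its log2 fold changes were -0.91 for DMA, -1.23 for C646 and -1.09 for solvent (adjusted p = 0.0282, 0.0074 and 0.0136).

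NPC1, the membrane protein that moves cholesterol out of lysosomes, measured 121, 145 and 153 CPM in DMA, 119, 120.1 and 188 CPM in C646 and 95.6, 108 and 149 CPM in solvent libraries 1 to 3, against 221, 282 and 238 CPM in starved libraries 1 to 3. Its stimulated groups overlapped one another and stayed below the starved libraries. On the log2 scale, its fold changes were -0.82 for DMA, -0.80 for C646 and -1.07 for solvent (adjusted p = 0.00875, 0.0117 and 0.00214). ABCA1 measured 4.07, 5.14 and 6.51 CPM in DMA, 7.83, 5.56 and 15.3 CPM in C646 and 4.74, 5.37 and 7.73 CPM in solvent libraries 1 to 3, against 15.4, 21.9 and 18.7 CPM in starved libraries 1 to 3. C646 library 3 was close to the lowest starved library, while the other stimulated libraries were at or below 7.83 CPM. The log2 fold changes of this gene were -1.83 for DMA, -0.97 for C646 and -1.65 for solvent (adjusted p = 0.00185, 0.0477 and 0.00361). With spike-in scaling ABCA1 fell in DMA (-1.02, adjusted p = 0.0308) and solvent (-1.06, adjusted p = 0.0396), and its value in C646 was -0.26. INSIG2 passed in DMA (-1.07, adjusted p = 0.0315) and C646 (-1.08, adjusted p = 0.0329), and its value in solvent was -0.70 with a 95% interval of -1.41 to 0.02. SCAP, NPC2 and MYLIP passed in none of the 3 comparisons under TMM. The 95% interval of MYLIP in solvent, -2.21 to 1.22, is wide at its level of 0.493 ± 0.275 CPM in solvent and 0.696 ± 0.260 CPM in starved libraries.

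**Figure D3:**
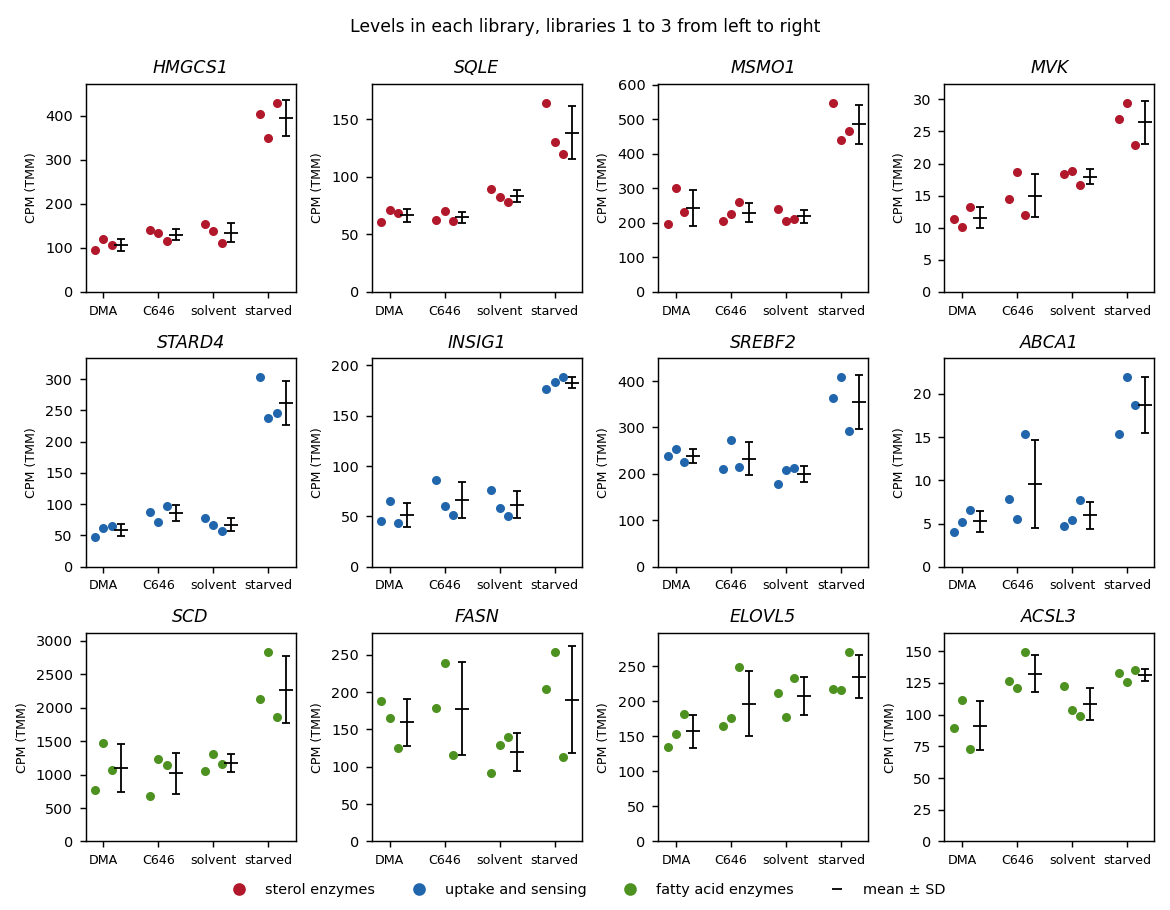
CPM (TMM) of 12 genes in each library of the DMA, C646, solvent and starved groups, with mean ± SD, n = 3. The 3 starved libraries stand above all others for HMGCS1, SQLE, MSMO1, MVK, STARD4, INSIG1, SREBF2, ABCA1 and SCD under this scaling. How many of all genes tested separate in this way was not counted. For ABCA1 the gap is narrow, with 15.3 CPM in C646 library 3 against 15.4 CPM in starved library 1. FASN overlaps in all groups. With spike-in scaling the log2 fold changes of SREBF2 were 0.25, 0.13 and -0.21 in DMA, C646 and solvent, and that of MVK in solvent was 0.04.

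The medians of the fatty acid enzymes against starved cells were nearer 0 than those of the sterol enzymes under TMM, at -0.26 in DMA, -0.14 in C646 and -0.21 in solvent; with spike-in scaling they were 0.53, 0.58 and 0.38. Under TMM, 3 of 10 fell in DMA, 1 in C646 and 1 in solvent, against 13.0%, 11.7% and 11.7% of all genes tested, and none rose. With spike-in scaling none fell, and 1 of 10, ACLY, which supplies cytosolic acetyl-CoA, was called higher in DMA (0.87, adjusted p = 0.0303), against 42.2% of all genes and an all-gene median of 0.81. A difference between the groups of enzymes was not tested.

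SCD measured 767, 1476 and 1064 CPM in DMA, 673, 1240.2 and 1139.8 CPM in C646 and 1053, 1314 and 1159.5 CPM in solvent libraries 1 to 3, against 2124, 2834 and 1862 CPM in starved libraries 1 to 3. Every stimulated library lay below every starved one, and the stimulated groups overlapped. Its log2 fold changes were -1.04 for DMA, -1.16 for C646 and -0.95 for solvent (adjusted p = 0.0103, 0.00674 and 0.0178). ELOVL5, an elongase of polyunsaturated fatty acids, measured 135, 154 and 182 CPM in DMA, 165, 176 and 249.7 CPM in C646 and 212, 178 and 233 CPM in solvent libraries 1 to 3, against 218, 216 and 271 CPM in starved libraries 1 to 3. DMA libraries overlapped the C646 and solvent libraries but did not reach the starved ones, which C646 and solvent libraries overlapped. It fell in DMA against starved cells (-0.58, adjusted p = 0.0234), and its values in C646 and solvent were -0.25 and -0.18.

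ACSL3, which joins long-chain fatty acids to coenzyme A, measured 89.7, 111 and 73.2 CPM in DMA, 127, 121 and 149 CPM in C646 and 123, 104 and 98.9 CPM in solvent libraries 1 to 3, against 133, 126 and 135 CPM in starved libraries 1 to 3. DMA libraries lay below both the C646 and the starved libraries. It fell in DMA against starved cells (-0.52, adjusted p = 0.0181), and its values were 0.01 in C646 and -0.27 in solvent. FASN measured 188, 165 and 126 CPM in DMA, 178, 239.5 and 115 CPM in C646 and 91.1, 129 and 139 CPM in solvent libraries 1 to 3, against 203, 254 and 112 CPM in starved libraries 1 to 3. All groups overlapped, its log2 fold change was -0.67 in solvent, and its 95% interval for solvent against starved cells was -1.33 to -0.00229. The remaining 6 enzymes had log2 fold changes between -0.36 (FADS1, a desaturase) and 0.20 (ACLY) in solvent, and FADS2, ACACA, the acetyl-CoA carboxylase, ELOVL6 and ACSS2, an acetyl-CoA synthetase, lay between these.

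With spike-in scaling the median of all genes tested shifted to 0.81 in DMA, 0.73 in C646 and 0.60 in solvent against starved cells, where under TMM it was 0.00, 0.01 and 0.00. A change of scaling shifts all genes nearly alike, so differences from these medians hardly move. Set against these medians, the sterol enzymes' median was -0.58, -0.52 and -0.56 with spike-in scaling and -0.61, -0.53 and -0.57 under TMM. For uptake and sensing genes the same differences were -0.86, -0.89 and -0.90 with spike-in scaling, and for fatty acid enzymes -0.28, -0.14 and -0.22. Spike-in controls took 0.535% to 0.743% of the counts in DMA, 0.546% to 0.829% in C646, 0.527% to 1.06% in solvent and 0.872% to 1.28% in starved libraries. The labels do not say how much control RNA was added or to what amount of sample.

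**Figure D4:**
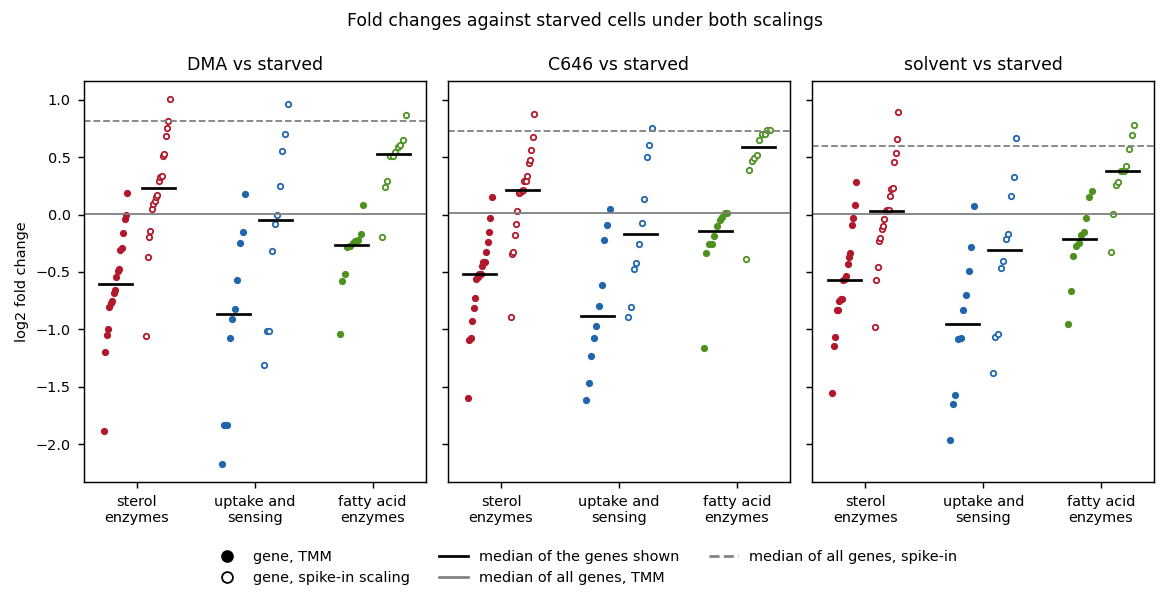
Log2 fold changes against starved cells of each gene under TMM (filled) and spike-in scaling (open), by role, with the median of each set (black) and of all genes tested (grey, solid for TMM, dashed for spike-in). A change of scaling shifts all genes nearly alike, so by construction a set's measured distance from the grey line hardly differs between the scalings. The medians of sterol and fatty acid enzymes change sign between the scalings. In solvent the median of sterol enzymes was -0.57 under TMM and 0.03 with spike-in scaling.

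Leaving out single libraries ended some of these calls. In solvent against starved cells 12 of the 19 called genes passed without any one library, and 13 of the 38 genes passed without solvent library 1. SCD was lost without starved library 2 or solvent library 1 or 3 (adjusted p up to 0.0791), SREBF1 without starved 2 or solvent 1 (up to 0.0741) and CYP51A1 without starved 1 or solvent 2 (up to 0.0686). MVK was lost without any library but starved 3 (up to 0.141), NSDHL without any but starved 2 (up to 0.144), FDFT1 without starved 2 or 3 or solvent 1 or 3 (up to 0.0618) and TM7SF2 without starved 1 or 2 or solvent 1 or 2 (up to 0.184).

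In DMA against starved cells 14 of 20 calls held without any one library. SREBF1 was lost without any library but starved 3 (adjusted p up to 0.143), MVD without starved 1 or 2 or DMA 1 or 2 (up to 0.150) and INSIG2 without starved 1 or 3 or DMA 2 or 3 (up to 0.0997). ELOVL5 was lost without starved 3 or DMA 1 or 2 (up to 0.0950), ACSL3 without starved 1 or 3 or DMA 3 (up to 0.0647) and SC5D without starved 3 (0.0676). In C646 against starved cells 13 of 20 held. CYP51A1 was lost whichever library was left out (up to 0.195), LSS without any but starved 3 (up to 0.211), ABCA1 without any but C646 3 (up to 0.154) and INSIG2 without any but C646 1 (up to 0.105). ACAT2 was lost without starved 1 or 3 or C646 1 or 2 (up to 0.0999), NSDHL without starved 1 or C646 1 (up to 0.0678) and NPC1 without C646 1 or 2 (up to 0.0529).

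The replicate numbers pair the inhibitor libraries with the starved libraries, and with the number as a block 25 of 38 genes fell in DMA, against 19.5% of all genes tested, and 22 in C646, against 17.8%. ACAT2, FDFT1, LSS, TM7SF2, ACACA and ACSS2 then passed in DMA (blocked adjusted p = 0.037, 0.0126, 0.03, 0.034, 0.0386 and 0.042), while MVD did not (0.0567). In C646 the block added TM7SF2 and ACACA (adjusted p = 0.0215 and 0.0216).

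Adding an inhibitor to serum and glucose was compared with solvent, and the sterol and fatty acid genes showed no call under the unblocked test. In DMA against solvent 0 of 38 passed, against 1.75% of all genes tested, and 1, MVK, passed by DESeq2. An unadjusted p under 0.05 was seen for 7 of the 38, beside 2960 of all 15263 genes. In C646 against solvent 0 of 38 passed, against 1.21% of all genes, and 0 passed by DESeq2. Here 3 of the 38 had an unadjusted p under 0.05, beside 2567 of all 15263 genes. In DMA against C646 0 of 38 passed, against 2.89%, and 2, STARD4 and ACSL3, passed by DESeq2. There 7 of the 38 had an unadjusted p under 0.05, beside 2651 of all 15263 genes. DMA and C646 share the solvent libraries as controls.

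The replicate numbers also pair these groups. With the block, 2 of 38 genes fell and 0 rose in DMA against solvent, against 10.2% of all genes called in either direction. Of all 15263 genes tested, 834 fell and 726 rose there. MVK fell by 0.62 (log2, blocked adjusted p = 0.0335), where the unblocked value was -0.63 ± 0.18 (SE, adjusted p = 0.0862). ELOVL5 fell by 0.41 (blocked adjusted p = 0.024), where the unblocked value was -0.40 (adjusted p = 0.217). In C646 against solvent the block called 0 of 38, against 7.86% of all genes. In DMA against C646 it called 1 of 38, ACSL3 (-0.54, adjusted p = 0.0339, unblocked 0.0702), against 9.81% of all genes. Without solvent library 1 the blocked fit called 0 of 38 in DMA against solvent.

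The 95% intervals of the leading genes in the inhibitor comparisons are from the unblocked fit under TMM. They hold for 1 gene at a time and for that scaling only. For HMGCS1 the interval was -0.63 to -0.03 in DMA and -0.35 to 0.25 in C646 against solvent. For INSIG1 it was -0.71 to 0.18 and -0.33 to 0.55, and for STARD4 -0.55 to 0.14 and 0.00272 to 0.69. For SQLE, whose inhibitor libraries all lay below the solvent libraries, the values were -0.32 (interval -0.59 to -0.05, adjusted p = 0.185) and -0.36 (interval -0.63 to -0.09, adjusted p = 0.167). STARD4 was -0.55 in DMA against C646 (interval -0.90 to -0.21, adjusted p = 0.0853), and ABCA1 -0.87 (interval -1.59 to -0.14, adjusted p = 0.202). For SCD the interval was -0.65 to 0.46 in DMA and -0.76 to 0.35 in C646 against solvent, and for FASN -0.25 to 1.08 and -0.09 to 1.23. None of these passed the threshold, which does not show that the groups were alike.

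**Figure D5:**
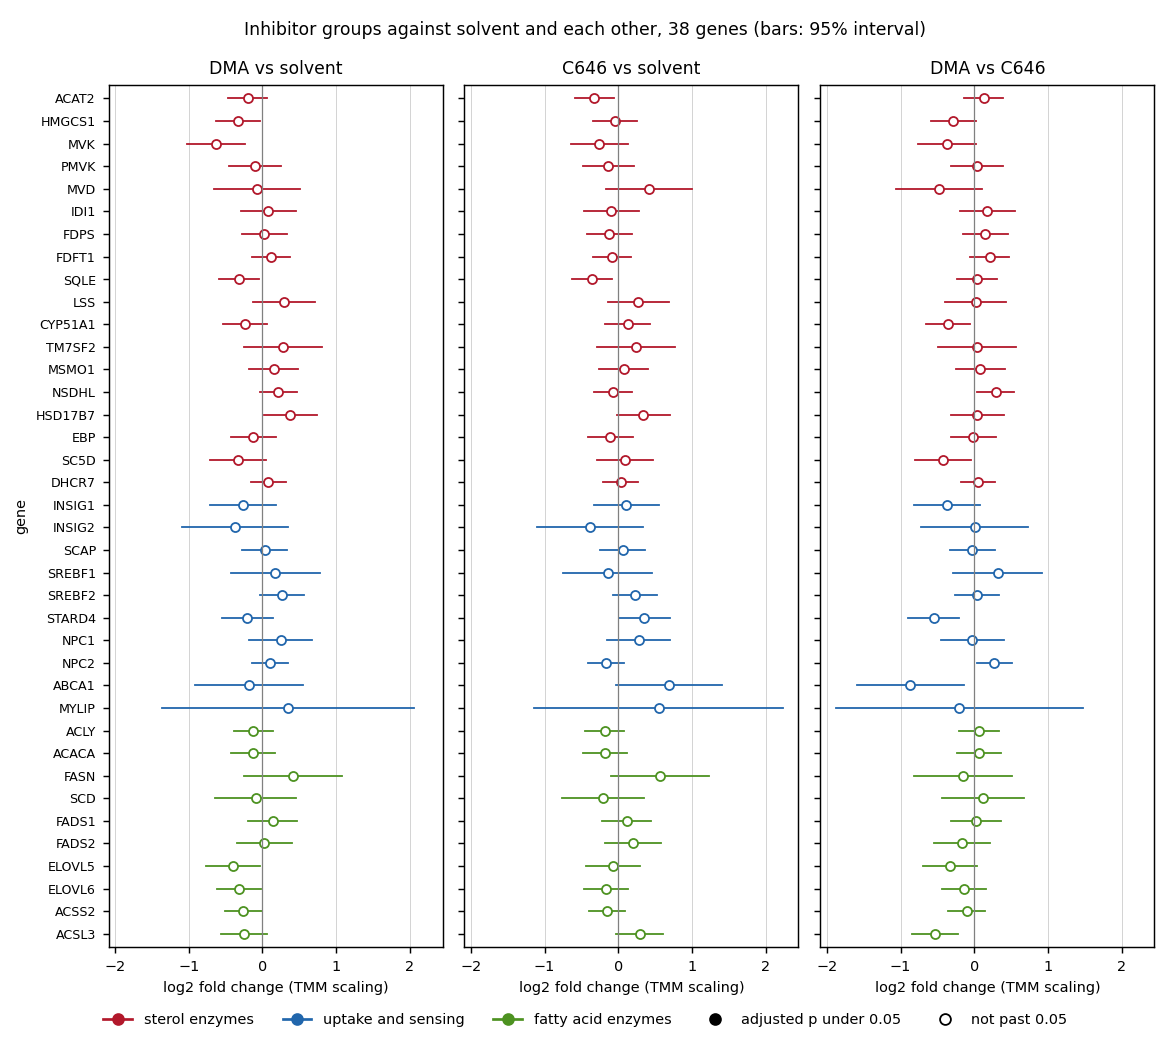
Log2 fold changes of the 38 genes in DMA against solvent, C646 against solvent and DMA against C646 under TMM, with 95% intervals; no point is filled, as none passed an adjusted p of 0.05 without the replicate block. The DMA values run between -0.63 (MVK) and 0.41 (FASN) and the C646 values between -0.38 (INSIG2) and 0.69 (ABCA1) against solvent. With spike-in scaling 30 of 38 DMA values and 27 of 38 C646 values were above 0. So were 11417 and 10330 of all 15263 genes tested.

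By role, the median log2 fold change in DMA against solvent was -0.02 for sterol enzymes, 0.07 for uptake and sensing genes and -0.12 for fatty acid enzymes, against 0.01 over all genes. In C646 against solvent these medians were -0.06, 0.17 and -0.12, against 0.01. With spike-in scaling they became 0.19, 0.26 and 0.09 in DMA, against 0.22 over all genes, and 0.08, 0.29 and 0.05 in C646, against 0.13. By single library under TMM, the sterol enzymes' median against the starved mean was -0.76, -0.39 and -0.50 in DMA libraries 1 to 3, -0.70, -0.47 and -0.42 in C646 libraries 1 to 3 and -0.57, -0.54 and -0.47 in solvent libraries 1 to 3. For uptake and sensing genes it was -1.003, -0.74 and -0.75 in DMA, -0.89, -1.06 and -0.60 in C646 and -1.31, -0.78 and -0.74 in solvent libraries 1 to 3. For fatty acid enzymes it was -0.25, -0.23 and -0.42 in DMA, -0.20, -0.13 and -0.19 in C646 and -0.12, -0.20 and -0.34 in solvent libraries 1 to 3.

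Estimated transcript shares were examined for SREBF1, INSIG2 and ACACA. INSIG2-201 took 49.0%, 48.4% and 55.7% of the gene's TPM in DMA, 47.9%, 47.7% and 55.4% in C646 and 64.1%, 62.6% and 95.7% in solvent libraries 1 to 3, against 56.7%, 46.7% and 63.2% in starved libraries 1 to 3. The solvent libraries overlap the starved ones and lie above the inhibitor libraries, with solvent library 3 far from the other 2. For SREBF1-201 the shares were 22.5%, 22.7% and 40.4% in DMA, 15.4%, 16.0% and 16.2% in C646 and 23.8%, 19.4% and 31.3% in solvent, against 19.8%, 23.2% and 13.4% in starved libraries. ACACA-231 took 18.3% to 33.2% over the 12 libraries, and no group stood apart. Shares of overlapping transcripts are estimates with no error given in the tables, and no test was made.

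A second list held 54 other lipid genes, of which 50 were tested. In solvent against starved cells 5 of 50 rose and 9 fell under TMM, against 12.6% and 11.7% of all genes, and with spike-in scaling 9 rose and 1 fell, against 21.1% and 1.24%. ELOVL3, an elongase, had no count in any starved library and no fold is given for it. The lowest adjusted p among those that fell belonged to OSBP, an oxysterol-binding transfer protein (-0.91, adjusted p = 9.65e-05), MID1IP1, an activator of acetyl-CoA carboxylase (-1.26, 0.000318), and FAXDC2, a fatty acid hydroxylase domain protein (-2.40, 0.00152). Among those that rose they were HACD3, a dehydratase of fatty acid elongation (0.71, 0.000508), GPAM, which begins glycerolipid synthesis (0.68, 0.011), and ACSL1, a long-chain acyl-CoA synthetase (0.38, 0.0293). The call of ACSL1 was lost without any library but starved 3 (adjusted p up to 0.120), and that of GPAM without starved 2 (0.0585). In DMA against starved cells 2 of 50 rose and 15 fell, against 13.9% and 13.0% of all genes, and in C646 against starved cells 3 rose and 15 fell, against 12.9% and 11.7%, all under TMM. With spike-in scaling 21 of 50 rose and 0 fell in DMA, against 42.2% and 0.884% of all genes, and 18 rose and 1 fell in C646, against 33.4% and 0.812%.

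Between stimulated groups, DGAT2, which completes triacylglycerol, fell in DMA against solvent (-1.10 ± 0.20, SE, adjusted p = 0.0206), as the only one of the 50, against 1.75% of all genes. This call was lost without solvent library 1 or 2 or DMA library 2 (adjusted p up to 0.117). DGAT2 measured 6.58, 5.94 and 10.6 CPM in DMA, 14.7, 13.0 and 13.7 CPM in C646 and 17.3, 15.8 and 16.4 CPM in solvent libraries 1 to 3, against 11.4, 13.2 and 12.5 CPM in starved libraries. Every DMA library lay below all others. In DMA against C646, DGAT2 (-0.84, adjusted p = 0.0428) and SOAT1, which esterifies cholesterol (-0.61, adjusted p = 0.0261), fell. The call of DGAT2 was lost without any library but DMA 3 (adjusted p up to 0.147) and that of SOAT1 without any but C646 2 (up to 0.0971). In C646 against solvent 0 of 50 passed, with 8 at an unadjusted p under 0.05, beside 2567 of all 15263 genes tested. With the replicate block, 5 of 50 fell in DMA against solvent, 2 rose and 1 fell in C646 against solvent, and 1 rose and 5 fell in DMA against C646, against 10.2%, 7.86% and 9.81% of all genes called in either direction. Of all 15263 genes tested, the block called 834, 570 and 893 lower and 726, 629 and 605 higher in these comparisons. With spike-in scaling 0 of 50 passed in each of these 3 comparisons, against 0.596%, 0.655% and 0.786%.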

How the data were processed

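Poly-A RNA of 12 RPE-1 libraries was sequenced, and the deposited tables give expected counts and TPM for each of 182164 transcripts, per the file headers. Trimmomatic 0.36, STAR 2.7.0e and build GRCh38.p10 are named in the submitters' processing notes. For the quantifier, the annotation and the strandedness, the sources used here name nothing. The deposited expected counts were summed per gene over GENCODE 29 transcripts and rounded, although the test was planned for whole counts, and the 92 spike-in controls and 264 unmatched transcripts (0.0923% to 0.146% of counts) were set aside. Deposited TPM was summed per gene and used only for levels and transcript shares.

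The filter was filterByExpr (count of at least 10, total of at least 15), and counts were scaled by TMM and tested with the robust quasi-likelihood F-test of edgeR 4.0.16 (R 4.3.3), with all 12 libraries in one fit, two-sided, and Benjamini-Hochberg adjustment over 15263 genes at 0.05. Alternatives were DESeq2 1.42.0, its size factors in edgeR, spike-in library sizes, no filter or at least 1 CPM, only the compared groups, each library left out and the replicate number as a block. Intervals are 95%, and a count of 3, the floor, is 0.104 to 0.201 CPM. The floor and the Wilson intervals cover counting error only. Counts are named uncertain for genes that share over 20% of their 31-base sequences or exon bases with another gene.

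In every comparison same-numbered libraries deviate together. The correlations were 0.33 to 0.48 (DMA and solvent), 0.28 to 0.38 (C646 and solvent), 0.28 to 0.48 (DMA and C646), 0.13 to 0.31 (DMA and starved) and 0.15 to 0.36 (C646 and starved). These comparisons were counted as paired. Solvent and starved, at 0.0957 to 0.33, were not, because the correlation of number 1 was weak.

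The 38 genes and the lists were chosen with earlier results of these data known. Values per library are given for up to 4 genes of each role with the smallest adjusted p in each comparison. FASN and DGAT2 were added after their values were seen. Other lipid genes are named up to 3 in each direction.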

Additional observations from a re-analysis of the deposited data

How the results depend on the processing

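Against starved cells the members' counts kept within 1.5 times under the alternatives run, except with spike-in scaling, where 4 genes passed in solvent, 8 in DMA (4 higher, 4 lower) and 3 in C646. Leaving out 1 library gave 13 to 20 genes in solvent, 16 to 18 in DMA and 14 to 17 in C646. In DMA against solvent DESeq2 called 1 and the replicate block 2, and each library left out gave 0. In DMA against C646 DESeq2 called 2, no filter 2, the block 1, and leaving out 1 library 0 to 1, the 1 being ACSL3 without DMA library 2 (-0.70, adjusted p = 0.0402). The looser motif form was in 17.4% of windows, the core in 2.17%. The cause was not tested.

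With spike-in scaling the values above 0 among the 38 genes numbered 27 in DMA, 26 in C646 and 22 in solvent against starved cells, beside 3, 4 and 5 under TMM. Of all 15263 genes tested, 13779, 13608 and 12971 were above 0 with spike-in scaling, beside 7664, 7775 and 7668 under TMM. Among genes called under at least 1 of these scalings, the following log2 fold changes reversed in sign. In DMA against starved cells they were MVD 0.0523, IDI1 0.12, FDPS 0.81, CYP51A1 0.0896, HSD17B7 0.15, SC5D 0.17, DHCR7 0.33, SREBF2 0.25, ELOVL5 0.24 and ACSL3 0.29. In C646 they were ACAT2 0.29, FDFT1 0.21, LSS 0.20, CYP51A1 0.34, NSDHL 0.29, HSD17B7 0.0271, DHCR7 0.18 and SREBF2 0.13. In solvent they were MVK 0.0388, FDFT1 0.16, CYP51A1 0.0428, NSDHL 0.23 and DHCR7 0.0311. The cause was not tested.

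Over all genes, calls split into 6439 higher and 135 lower in DMA, 5096 and 124 in C646 and 3227 and 189 in solvent with spike-in scaling, against 2126 and 1983, 1967 and 1782, and 1921 and 1783 under TMM. For DMA against starved cells that is 6574 in all, beside 4109. Between stimulated groups the split with spike-in scaling was 85 higher and 6 lower in DMA against solvent, 84 and 16 in C646 against solvent and 53 and 67 in DMA against C646, against 112 and 155, 124 and 61, and 144 and 297 under TMM. All-gene calls for DMA against solvent were 1096 by DESeq2, 455 with no filter, 91 with spike-in scaling, 31 with the compared groups only, 1560 with the block, 471 with the block and without solvent library 1, and 1, 8, 30 and 119 without DMA 2, solvent 1, solvent 2 and DMA 3, beside 267. For C646 against solvent they were 891, 348, 100, 71, 1199 and 321 in the same order of settings, and 24, 35, 66, 96 and 114 without solvent 1, C646 1, C646 3, solvent 2 and C646 2, beside 185. For DMA against C646 they were 1055 by DESeq2, 120 with spike-in scaling, 140 with the compared groups only, 1498 with the block, and 192, 180, 185, 218 and 240 without DMA 2, DMA 3, C646 1, C646 2 and C646 3, beside 441. For solvent against starved cells 2269 were called without starved library 2, beside 3704.

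For solvent against starved cells each library also correlated most with the library of its own number, but weakly for number 1 (correlations 0.0957, 0.33 and 0.18). This comparison was not counted as paired. The block called 21 of 38 genes there, all lower, beside 19 without it. Over all 15263 genes tested it called 2697 lower, beside 1783 without it. Among the 38 it added INSIG2 (-0.79, adjusted p = 0.0144) and FADS1 (-0.35, adjusted p = 0.0148). The low level of MYLIP limits its precision.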
